A study of Homo sapiens with 12 samples.

Results

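The cytosolic ribosomal protein genes encode the proteins of the large and small subunits of the ribosome that works in the cytoplasm. They were taken by name: every row of the deposited table called RPL or RPS followed by a number, with an optional A, X or L, together with RPLP0, RPLP1, RPLP2 and RPSA. This gave 80 of 57865 rows, 48 named for the large subunit and 32 for the small subunit. The naming rule used no measured value, but the family was chosen with earlier results of these data known. The genes lay on 21 chromosomes, with 12 on chromosome 19 and 4 on X. Of the 80, 46 large and 32 small subunit genes passed the filter on low read numbers and were tested. The other 2 were RPL10L and RPL3L, copies of RPL10 and RPL3 that are known from testis and from striated muscle. RPL10L lay between 0 and 0.354 FPM over the libraries, with 3 reads in all, and RPL3L between 0.135 and 2.67 FPM. FPM, the unit of the deposited table, stands for fragments scaled by a factor for each library and not to the length of the gene. A few names need care: RPS10L is annotated as a processed pseudogene, and rows of RPL7A, RPS18 and RPS25 with a number after a dot fall outside the rule and passed the test in no comparison.

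The samples were ES-2 cells, a cell line established from an ovarian cancer. One group each had received siRNA against IGF2BP1 (written siI1), against IGF2BP2 (siI2) and against IGF2BP3 (siI3), and the last had received control siRNA (siC). Each group had 3 libraries of total RNA depleted of ribosomal RNA, all from parental cells with no other allele or agent named. Neither the siRNA sequences nor the time after transfection are known here, and the labels do not tell separate cultures from repeat samples, so the p-values describe only how far these samples spread. Libraries held 3274590 to 11110357 reads outside the spike-ins, and 3 reads were worth 0.324 to 0.727 FPM. The ribosomal protein genes took 2.386% to 3.016% of the reads. The FPM outside the spike-ins added up to 794020 in siI2 replicate 3 and to 1198169 in siC replicate 2. FPM is thus not a plain share of the reads. In siC replicate 2 the ribosomal protein genes took 2.386% of the reads yet 28583 FPM, the highest sum in siC. IGF2BP1 reached 11.1 ± 0.539 FPM in siI1 and 43.9 ± 4.52 FPM in siC, IGF2BP2 reached 13.4 ± 5.1 FPM in siI2 and 80.0 ± 4.72 FPM in siC, and IGF2BP3 reached 4.52 ± 1.76 FPM in siI3 and 23.5 ± 5.18 FPM in siC (SD, n = 3 each). Of the markers looked up, KRT8, KRT18, VIM, CDH2 and FN1 were present in every library, as was the endothelial cadherin CDH5 at 54.8 to 149 FPM. Of the ovarian carcinoma genes, MECOM was at 11.2 to 43.1 FPM and MUC16 at 0 to 10.6 FPM. The epithelial genes EPCAM, CDH1 and KRT19, the ovarian carcinoma genes PAX8 and WT1 and the leukocyte genes PTPRC, CD3E, LYZ and CD68 were at or near 0, the highest value being 2.91 FPM for PAX8.

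Most ribosomal proteins are needed in equal numbers, and the mRNAs of the family are among the most abundant of a growing cell. The transcripts typically start with a cytosine followed by a run of pyrimidines, the 5′ terminal oligopyrimidine or TOP tract, through which the kinase mTOR and the protein LARP1 control translation of the whole family. IGF2BP1, IGF2BP2 and IGF2BP3 are RNA-binding proteins that attach to many mRNAs and are best known for protecting them from decay. The genes have also left a large number of processed pseudogenes in the genome, intronless copies to which short reads can map.

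The start of the gene carries the feature that the family is known for. RefSeq windows on GRCh38.p14 were matched by symbol for 61 of the 80 genes. In 42 of the 61 (68.9%) the annotated first base lay inside an unbroken run of 8 or more C or T on the sense strand, against 1623 of 27305 genes with a window (5.94%). The 30 bases around the start are shown for genes that differ in their values below, with the run that covers the start in capitals, 15 bases before the first transcribed base and 15 from it on. RPS24 (chr10:78033848-78033877, plus strand), RPL35A (chr3:197950175-197950204, plus strand), RPS6 (chr9:19380222-19380251, minus strand) and RPL26 (chr17:8383179-8383208, minus strand) were among the lowest in siI3. RPL18 (chr19:48619164-48619193, minus strand), RPS14 (chr5:150449725-150449754, minus strand) and RPS3 (chr11:75399503-75399532, plus strand) did not pass the test in any comparison. RPS27L (chr15:63157463-63157492, minus strand) has no such run, and so nothing is in capitals.
RPS24: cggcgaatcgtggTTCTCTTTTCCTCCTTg
RPL35A: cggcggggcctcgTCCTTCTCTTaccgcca
RPS6: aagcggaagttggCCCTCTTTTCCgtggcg
RPL26: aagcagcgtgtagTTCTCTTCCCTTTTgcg
RPS27L: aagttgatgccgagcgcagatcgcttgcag
RPL18: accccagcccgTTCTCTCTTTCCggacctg
RPS14: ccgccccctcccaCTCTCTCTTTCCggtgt
RPS3: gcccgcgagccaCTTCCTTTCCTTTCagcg
The runs were 16 bases long in RPS24, 10 in RPL35A, 11 in RPS6, 14 in RPL26, 12 in RPL18 and RPS14, and 14 in RPS3. The median run over the 61 genes was 11 bases. These letters describe the annotated start, which need not be the start used in ES-2 cells.

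Levels of single genes spread over several orders of magnitude. The mean over the 12 libraries was at least 1000 FPM for 7 of the 80 genes, from 20 to under 1000 FPM for 60 and under 20 FPM for 13, with a median of 204 FPM. Per kilobase of annotated mRNA, high levels were 2196 FPM per kilobase for RPL18, 2078 for RPS14, a small subunit protein lost in the 5q- syndrome, 2064 for RPL27 and 1856 for RPL41, the smallest protein of the ribosome. The lowest levels among the 77 tested genes with an annotated mRNA were 2.183 FPM per kilobase for RPL36A, 3.158 for RPS27L, 9.107 for RPL21, 11.08 for RPL7 and 11.14 for RPL39. The annotated mRNA of RPS27L used for that value is 6434 bases long, and 5 of the genes have one of more than 3000 bases, against a median of 716 bases. All levels per kilobase are those of the gene's own row, without rows named as its pseudogenes. The own row held 20.1% of the FPM of both together for RPL21, 6.66% for RPL7 and 14.6% for RPL39. It held 72.4% for RPL36A and 100% for RPS27L.

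The genes differed in how steady they were. The highest library was less than 2-fold above the lowest for 23 of the 78 tested genes and more than 5-fold above it for 15. RPL3, a protein of the peptidyl transferase centre, was one of the steadiest, with 470.5, 466.6 and 519.3 FPM in siI1, 514.0, 514.5 and 436.5 FPM in siI2, 572.1, 483.5 and 390.0 FPM in siI3, and 528.3, 461.7 and 463.6 FPM in siC. All 4 groups of RPL3 overlapped, and its highest library was 1.47-fold above its lowest. RPS24, a small subunit protein mutated in some families with Diamond-Blackfan anemia, was the most variable of the tested genes, with a 32.7-fold span between libraries. The replicates of a group themselves differed widely for RPS24: the SD within groups was 1.42 on the log2(FPM + 1) scale, against 0.17 for RPL3.

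**Figure D1:**
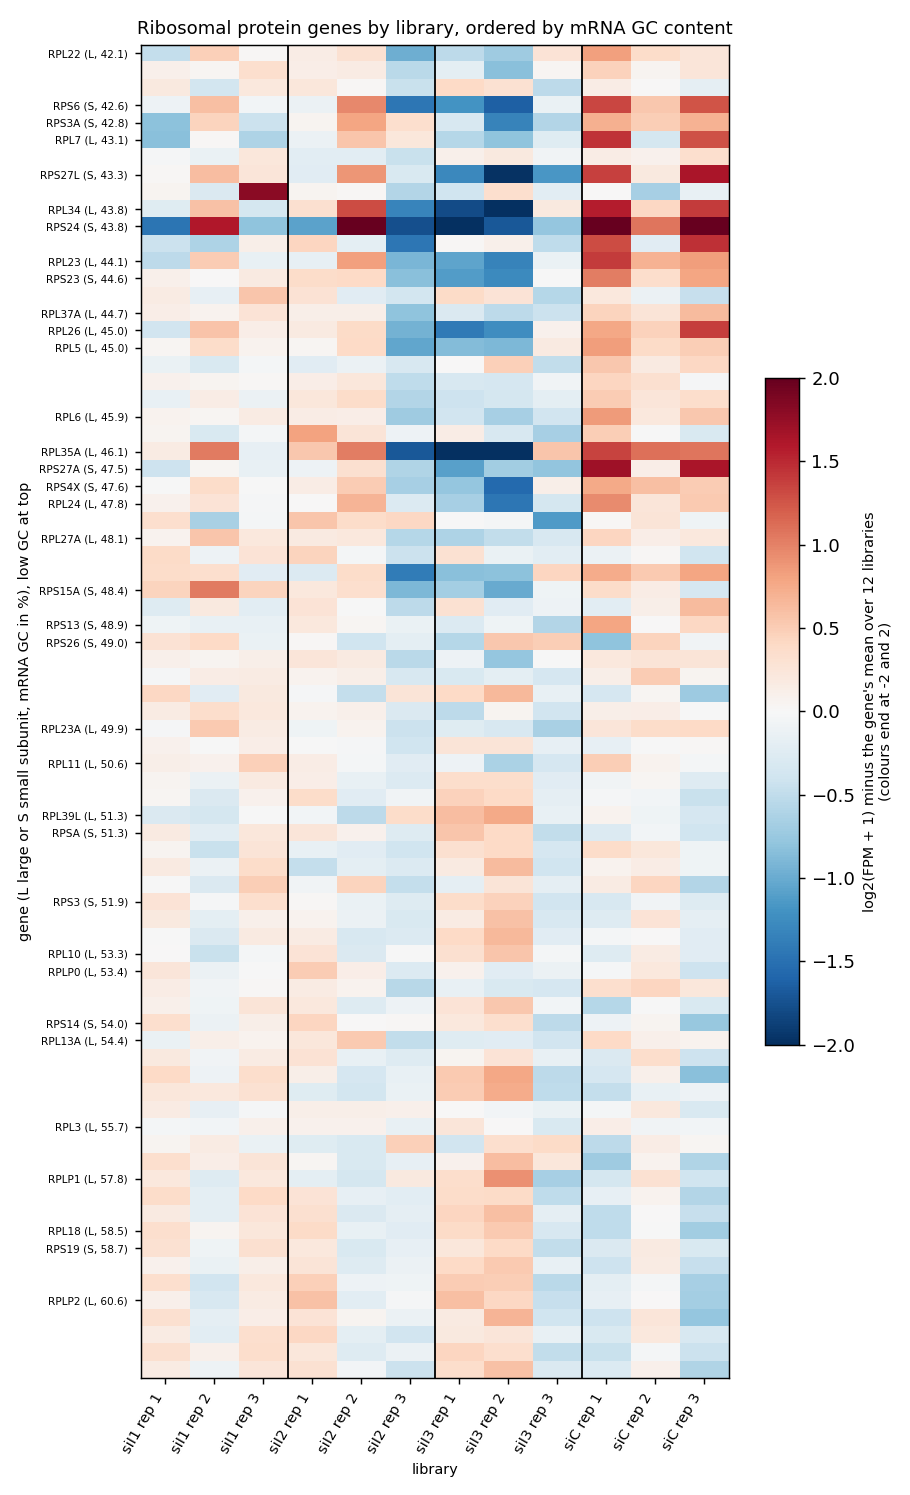
Log2(FPM + 1) of 77 tested ribosomal protein genes with an annotated mRNA in each of the 12 libraries, as the difference from the gene's mean over the libraries (colour), with genes in rows by rising GC content of the mRNA (names for part of the rows) and libraries in columns. Genes in the upper, GC-poor rows tend to be highest in siC replicates 1 and 3 and lowest in siI3 replicates 1 and 2, and RPS24 spans 32.7-fold.

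Summed over the family, the groups lay within each other's spread. The 80 genes added up to 27853 ± 2034 FPM in siI1, 25171 ± 3622 FPM in siI2, 26790 ± 4833 FPM in siI3 and 26268 ± 2491 FPM in siC (SD, n = 3 each). Large subunit genes added up to 17348 ± 1181 FPM in siI1, 15656 ± 2282 FPM in siI2, 16697 ± 2704 FPM in siI3 and 16021 ± 1655 FPM in siC. Small subunit genes added up to 10504 ± 854 FPM in siI1, 9514 ± 1364 FPM in siI2, 10093 ± 2131 FPM in siI3 and 10247 ± 879 FPM in siC. In each of these sums the ranges of all 4 groups overlapped. As these are bulk samples, fewer cells with a transcript and less of it per cell cannot be told apart.

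The large subunit sum stood slightly higher against the small subunit sum in each knockdown than in siC. The ratio was 1.65, 1.68 and 1.629 in siI1, 1.68, 1.58 and 1.675 in siI2, 1.65, 1.58 and 1.77 in siI3, and 1.51, 1.625 and 1.56 in siC. The ranges of siI2 and siI3 overlapped that of siC, while all siI1 libraries lay above siC, the lowest just above siC replicate 2. On the log2 scale the mean was 0.72 ± 0.02 in siI1, 0.72 ± 0.05 in siI2, 0.74 ± 0.08 in siI3 and 0.64 ± 0.06 in siC, so that the knockdowns lay 0.08, 0.08 and 0.09 above siC. Sums over genes chosen with results known were given no test. The sign turned under 2 other readings: the differences were -0.03, -0.02 and -0.03 after the correction for GC content and length described below, and -0.08, -0.05 and -0.21 when the median fold change of each subunit replaced the sum.

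**Figure D2:**
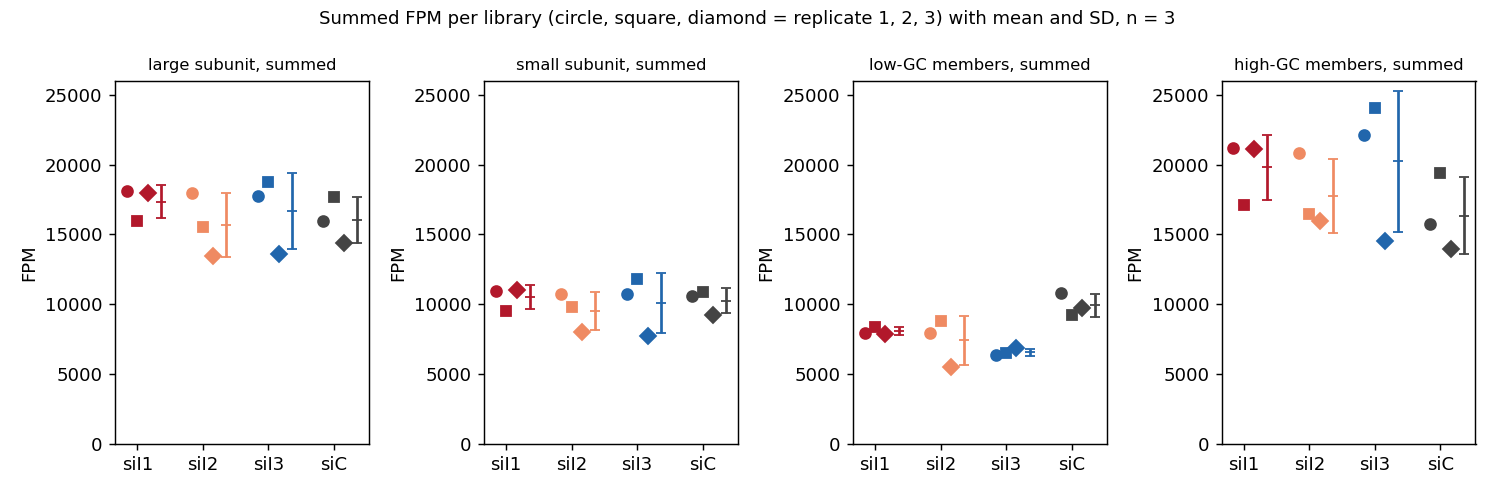
Summed FPM (vertical axis) of large subunit, small subunit, GC-poor and GC-rich (split at the median of 49.9%) ribosomal protein genes in each library of siI1, siI2, siI3 and siC, with the mean and SD of 3 libraries beside the points. The subunit sums overlap between all groups, while the sum of members below the median mRNA GC content averages 6551 FPM in siI3 and 9911 FPM in siC, with no overlap between those libraries.

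Knockdown of IGF2BP3 was the comparison with the most called ribosomal protein genes. In siI3 against siC, 19 of the 78 tested genes were lower (24.4%) and 0 were higher, by limma on log2(FPM + 1) with a Benjamini-Hochberg adjusted p below 0.05. Of all 13782 tested genes, 8.29% were lower, 2.3% higher and 10.6% changed in either direction. At an unadjusted p below 0.05 there were 34 ribosomal protein genes in both directions together. The share of all genes at an unadjusted p was not counted, here or in the comparisons below. Such counts therefore cannot be set beside the adjusted shares. The median log2 fold change over the 78 genes was -0.04, beside -0.05 over all tested genes, with 43 genes below 0 and 35 above. Both subunits had a like share of calls, with 11 of 46 large subunit genes (23.9%) and 8 of 32 small subunit genes (25.0%) lower. edgeR on the recovered reads called 15 lower, all among the 19, and 1 higher, which was RPL29, beside 6.59% of all genes lower.

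Single libraries set how many genes passed. It came to 1 gene when siC replicate 1 was left out and to 2 for siC replicate 3. It came to 4 genes when siI3 replicate 1 was left out, to 2 for siI3 replicate 2 and to 39 (22 lower and 17 higher) for siI3 replicate 3. In the order named, 0.646%, 0.805%, 1.56%, 1.13% and 19.9% of all genes were called, so the number moved for all genes and not only for this family. The calls of RPS24, RPS6, RPS4X, RPL35A, RPL34, RPL23, RPL26 and RPL5 described next were each lost on leaving out any of the first 4 of these libraries. Abundant noncoding RNA also varied between the libraries. U1 small nuclear RNA took 0.78%, 0.83% and 8.22% of the reads in siI3, against 6.17%, 14.74% and 10.7% in siC, so that siI3 replicate 3 lay within the siC range. The RN7SL RNAs of the signal recognition particle took 23.6%, 23.87% and 17.25% in siI3, against 13.41%, 12.12% and 9.58% in siC, with no overlap. The part of these shares in the ribosomal protein results was not tested.

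Among small subunit genes, RPS24 had the largest difference. It had 14.0, 20.6 and 39.9 FPM in siI3, against 459.2, 144.7 and 342.4 FPM in siC. Every siI3 library lay below every siC library, the closest being siI3 replicate 3 and siC replicate 2. RPS24 fell by 3.59 on the log2 scale (SE 0.82, limma adjusted p = 0.0189). RPS6, the substrate of the S6 kinases, had 193.4, 143.0 and 404.2 FPM in siI3, against 1124, 642 and 1057 FPM in siC. The groups of RPS6 did not overlap, and siI3 replicate 3 was again the highest of its group. RPS6 had a log2 fold change of -2.03 (SE 0.47, limma adjusted p = 0.0196).

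RPS27A, which encodes a small subunit protein fused to ubiquitin, had 6.31, 8.64 and 7.97 FPM in siI3, against 49.4, 15.96 and 47.4 FPM in siC. The siI3 libraries were close together and all below siC, in which replicate 2 was the low one. RPS27A had a log2 fold change of -2.01 (SE 0.35, limma adjusted p = 0.00625), which was lost only without siC replicate 1, at 0.0504. RPS27L, a copy of RPS27 that p53 is known to induce, had 5.89, 3.30 and 6.56 FPM in siI3, against 42.4, 18.2 and 51.3 FPM in siC. There was no overlap, and its fold change of -2.54 on the log2 scale (SE 0.38, limma adjusted p = 0.00177) kept its call without any one of the 12 libraries. RPS27 itself averaged 3.92 ± 0.994 FPM in siI3 and 4.73 ± 1.73 FPM in siC (SD, n = 3 each), and its groups overlapped. RPS4X, an X-linked gene of a small subunit protein, had 280.4, 163.6 and 523.3 FPM in siI3, against 814.9, 726.9 and 680.4 FPM in siC. The groups of RPS4X did not overlap (log2 fold change -1.35, SE 0.34, limma adjusted p = 0.0264), and edgeR did not call it, at 0.0573. The other 3 small subunit genes that fell were RPS23 (-1.52), a protein of the decoding centre, RPS3A (-1.38) and RPS13 (-0.72).

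Among large subunit genes, RPL35A came first. This gene, mutated in some patients with Diamond-Blackfan anemia, had 42.5, 27.1 and 287.6 FPM in siI3, against 499.2, 422.3 and 410.7 FPM in siC. siI3 replicate 3 stood far above the other two siI3 libraries and still below every siC library. RPL35A had a log2 fold change of -2.65 (SE 0.70, limma adjusted p = 0.029) but was not called by edgeR, at 0.114. RPL34 had 6.88, 5.46 and 30.1 FPM in siI3, against 79.4, 35.3 and 70.5 FPM in siC. The closest libraries, siI3 replicate 3 and siC replicate 2, were nearly level, and RPL34 had a log2 fold change of -2.35 (SE 0.59, limma adjusted p = 0.0251, edgeR 0.0532).

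RPL23, a large subunit protein that can also bind the p53 regulator MDM2, had 101.3, 82.6 and 192.8 FPM in siI3, against 560.2, 341.8 and 378.2 FPM in siC. The log2 fold change of RPL23 was -1.82 (SE 0.39, limma adjusted p = 0.0146), with no overlap between the groups. RPL26, a protein near the exit of the peptide tunnel, had 16.1, 18.3 and 47.3 FPM in siI3, against 76.9, 61.5 and 117.5 FPM in siC. Again no siI3 library reached the lowest siC library, and the log2 fold change of RPL26 was -1.72 (SE 0.40, limma adjusted p = 0.0192). RPL5 and RPL11 carry the 5S RNA into the large subunit and can hold MDM2 in check. RPL5 had 136.8, 134.4 and 283.9 FPM in siI3, against 449.8, 326.1 and 352.6 FPM in siC, without overlap (log2 fold change -1.10, SE 0.33, limma adjusted p = 0.044, edgeR 0.0778). RPL11 averaged 253.8 ± 45.7 FPM in siI3 and 368.5 ± 76.0 FPM in siC (SD, n = 3 each), also without overlap, and did not pass (limma adjusted p = 0.104). The other 6 large subunit genes that fell were RPL24 (-1.39), RPL7 (-1.33), RPL6 (-1.01), RPL37A (-0.86), RPL23A (-0.74) and RPL27A (-0.74).

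**Figure D3:**
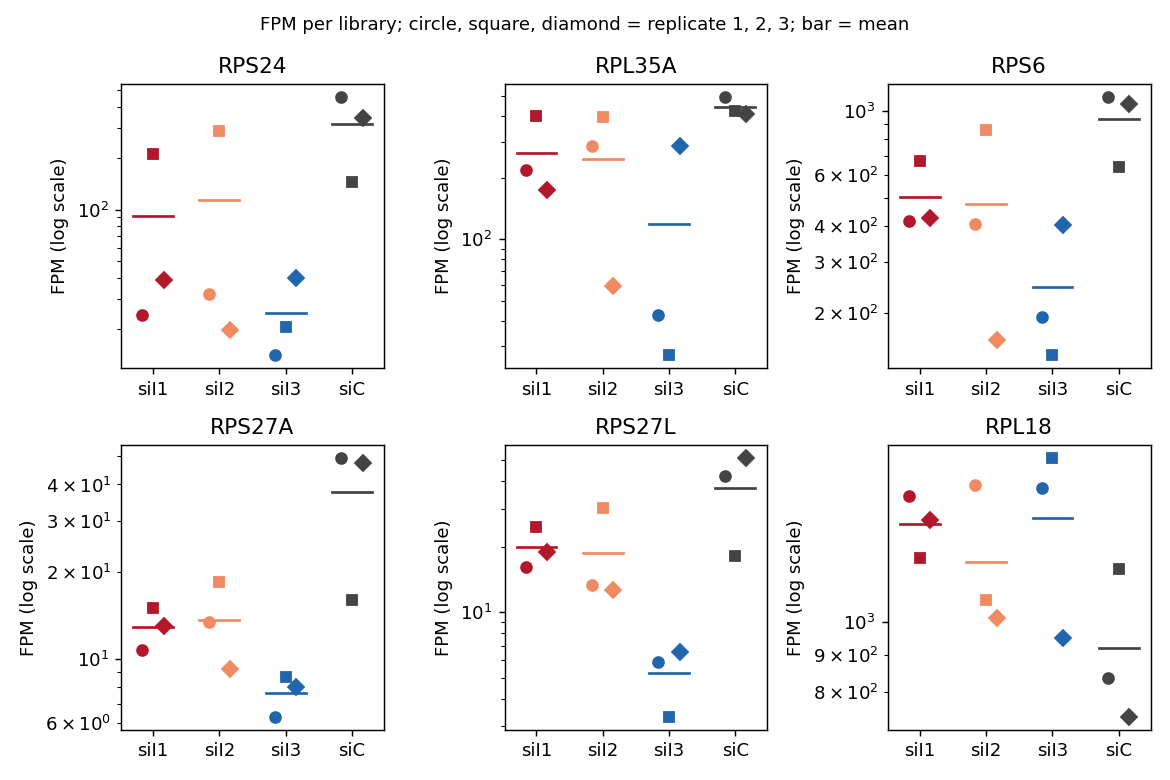
FPM on a log scale (vertical axis) of RPS24, RPL35A, RPS6, RPS27A, RPS27L and RPL18 in each library of siI1, siI2, siI3 and siC, with a marker shape for each replicate and a bar at the mean of 3. The first 5 genes have their lowest mean in siI3 (RPS24 24.8 FPM in siI3 and 315.4 FPM in siC), while RPL18 overlaps between siI3 and siC.

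The stalk and many other well-known members did not pass. The acidic stalk proteins recruit translation factors to the large subunit. RPLP0 averaged 745.1 ± 83.9 FPM in siI3 and 759.8 ± 163 FPM in siC, RPLP1 878.7 ± 440 FPM in siI3 and 641.8 ± 185 FPM in siC, and RPLP2 520.7 ± 181 FPM in siI3 and 365.1 ± 85.2 FPM in siC (SD, n = 3 each). All 3 overlapped, with log2 fold changes of -0.01, 0.35 and 0.47. RPSA, a small subunit protein also described as a laminin receptor, averaged 416.1 ± 144 FPM in siI3 and 302.8 ± 38.6 FPM in siC. RPS19, the gene most often mutated in Diamond-Blackfan anemia, averaged 533.9 ± 159 FPM in siI3 and 459.8 ± 91.1 FPM in siC. The mRNA entry channel protein RPS3 averaged 1229 ± 354 FPM in siI3 and 924.7 ± 86.8 FPM in siC. None of these differences exceeded the spread between libraries.

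Other members followed on both sides of 0 without a call in siI3 against siC. The log2 fold changes were -0.02 for RPL3, 0.39 for RPL10, a late-joining large subunit protein, -0.47 for RPL13A, -0.79 for RPL22, 0.27 for RPS14 and 0.29 for RPS26. RPL39L, a copy of RPL39 known from testis, averaged 25.9 ± 8.12 FPM in siI3 and 17.1 ± 2.5 FPM in siC (SD, n = 3 each), with a log2 fold change of 0.53. RPL18, the member with the highest level per kilobase, had 1544, 1701 and 952.3 FPM in siI3, against 835.3, 1189 and 737.5 FPM in siC. The groups of RPL18 overlapped, and the log2 fold change of 0.59 did not pass (SE 0.27, limma adjusted p = 0.155). In the authors' deposited table, 2 of these genes were lower in siI3 than in siC at an FDR below 0.05 and 0 were higher. These were RPS27L, with a log2 fold change of -2.83 and FDR 0.00328, and RPS27A, with -2.29 and FDR 0.00809, both from the authors' deposited table. For RPS24 the authors' deposited table gives -3.67 and FDR 0.0999.

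The genes that fell were GC-poor. Over the 19 the median GC content of the annotated mRNA was 45.0% (42.6% to 49.9%), and over the 58 other tested genes with a value it was 51.9% (42.1% to 62.1%). Among the 39 ribosomal protein genes below the family median of 49.9% GC, 18 were lower in siI3 (46.2%), with a median log2 fold change of -0.74. Among the 38 tested genes at or above it, 1 was lower, RPL23A, and the median was 0.33. Other genes split the same way by that GC value: 14.6% of 5486 GC-poor genes were lower in siI3, with a median of -0.44, against 2.48% of 5763 GC-rich genes, with a median of 0.22. The median GC content was 49.7% in large and 51.3% in small subunit genes.

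Fold change rose with GC content against siC in each knockdown. Spearman's rho over 77 ribosomal protein genes was 0.69 in siI1, 0.71 in siI2 and 0.76 in siI3, and over 11326 genes 0.63, 0.63 and 0.59. The 3 comparisons share the siC libraries, and genes of a library share its depth and base composition, so these values are descriptions. Between knockdowns, without siC, rho over the 77 genes was -0.56 for siI1 against siI3, -0.54 for siI2 against siI3 and -0.04 for siI1 against siI2, beside 0.03, -0.05 and 0.09 over 11326 genes. The siC libraries differed among themselves in base composition. Across all genes, log2(FPM + 1) relative to the mean of all libraries changed per 10 points of GC by 0.16, 0.169 and -0.021 in siI3, by 0.207, 0.01 and 0.118 in siI1 and by 0.196, -0.089 and 0.12 in siI2, against -0.461, 0.023 and -0.432 in siC. In siC it was replicates 1 and 3, and not replicate 2, that were enriched in GC-poor genes. The part of these slopes in the calls of siI3 was not tested beyond the correction that follows.

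**Figure D4:**
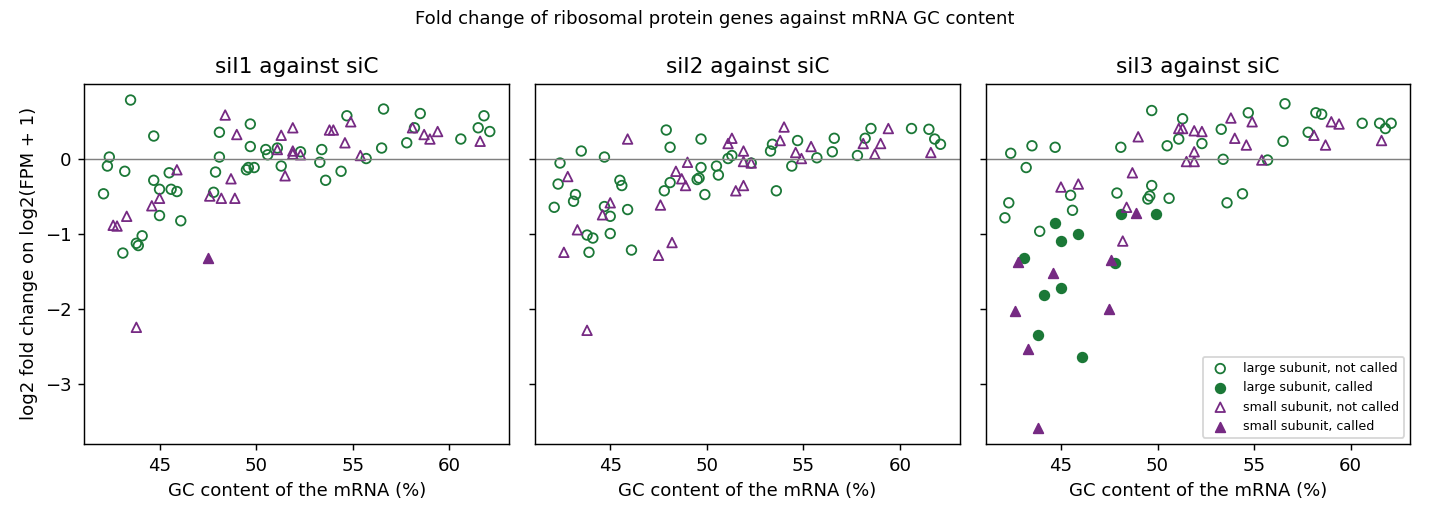
Log2 fold change (vertical axis) of 77 ribosomal protein genes against the GC content of the mRNA in percent (horizontal axis), 1 panel each for siI1, siI2 and siI3 against siC, with filled markers for genes that passed the test. Fold change climbs with GC content in all 3 panels (rho 0.69, 0.71 and 0.76), and the filled markers of siI3 lie below 50% GC.

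A correction of each library for GC content and length, fitted over 13562 genes, left part of the result. After it 9 ribosomal protein genes were lower in siI3 and 1 was higher, beside 4.2% of all genes lower. The 9 were RPS24, RPS6, RPS27A, RPS27L, RPS23, RPL34, RPL23, RPL26 and RPL24, all among the 19. RPS27L had a corrected log2 fold change of -2.16 (limma adjusted p = 0.00123), RPS27A of -1.54 (limma adjusted p = 0.00589) and RPS24 of -3.14 (limma adjusted p = 0.0278). RPL35A at -2.22 (limma adjusted p = 0.0564), RPS4X at -0.93 (limma adjusted p = 0.0665) and RPL5 at -0.51 (limma adjusted p = 0.245) no longer passed. The rho between fold change and GC content over the 77 genes was 0.5 after the correction. The correction used the longest annotated transcript of each gene, while this rho used the shortest linked to RefSeq. The part of that mismatch in the remaining rho was not tested.

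The sum over the GC-poor members, not corrected for GC content, set siC apart from the knockdowns where the subunit sums did not. It was 6351, 6469 and 6832 FPM in siI3, against 10835, 9206 and 9691 FPM in siC, and averaged 8048 ± 282 FPM in siI1 and 7403 ± 1730 FPM in siI2 (SD, n = 3 each). No library of a knockdown reached the lowest siC library. The GC-rich members added up to 20238 ± 5059 FPM in siI3 and 16355 ± 2769 FPM in siC, with overlap. The ribosomal protein genes as a whole kept 5.237% ± 0.353 of the protein-coding FPM in siI3 and 5.103% ± 0.225 in siC (SD, n = 3 each).

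TOP tracts did not set the lower genes apart from the others by count. A run of 8 or more pyrimidines over the start was annotated in 11 of the 15 genes that fell in siI3 and have a window (73.3%), and in 31 of the 45 that did not (68.9%). RPS24, with the longest of the runs printed above, and RPS27L, with none, had the largest and the third largest log2 difference. RPS14 and RPS3, with runs of 12 and 14 bases, did not pass.

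Knockdown of IGF2BP1 changed 1 of the 78 genes. RPS27A was lower in siI1 and 0 were higher, by limma at an adjusted p below 0.05, beside 8.18% of all genes changed, 4.42% lower and 3.77% higher. At an unadjusted p below 0.05 there were 11, with no share of all genes counted at that threshold. edgeR called 2, RPS27A and RPL7, beside 10.1% of all genes. RPS27A had 10.7, 15.03 and 12.99 FPM in siI1, against 49.4, 15.96 and 47.4 FPM in siC. The siI1 libraries lay just below siC replicate 2 and far below the other two. The log2 fold change of RPS27A was -1.33 (SE 0.35, limma adjusted p = 0.0328), and leaving out replicate 1 or 3, of siI1 as of siC, ended the call. After the GC and length correction it was -0.90 (limma adjusted p = 0.0614). The count was 7 with siC replicate 2 left out, 4 with siI1 replicate 2 or siI2 replicate 2 left out, and 2 with siI3 replicate 3 left out. In the order named, 18.9%, 6.51%, 10.9% and 11.7% of all genes were called.

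Knockdown of IGF2BP2 gave no call. By limma 0 of the 78 genes passed in siI2 against siC in either direction, beside 1.51% of all genes, 0.936% lower and 0.573% higher. There were 15 at an unadjusted p below 0.05, with no share of all genes counted at that threshold, and edgeR called 0. The smallest p-values were those of RPS27A, RPS7 and RPL6. RPS27A had 13.4, 18.4 and 9.21 FPM in siI2, against 49.4, 15.96 and 47.4 FPM in siC, which overlapped at siC replicate 2 (log2 fold change -1.29, limma adjusted p = 0.0718). RPS7, mutated in rare cases of Diamond-Blackfan anemia, had 31.3, 49.2 and 13.8 FPM in siI2, against 64.4, 55.1 and 66.3 FPM in siC (log2 fold change -1.12, limma adjusted p = 0.116). RPL6 had 81.1, 80.3 and 44.1 FPM in siI2, against 133.6, 84.8 and 106.4 FPM in siC (log2 fold change -0.68, limma adjusted p = 0.119). Neither RPS7 nor RPL6 overlapped, yet their spread in siI2 was wide. The count was 5 with siC replicate 2 left out and 6 with siI2 replicate 2 left out, beside 11.4% and 10.3% of all genes.

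RPS24 was variable within both of these groups. It had 24.2, 211.2 and 38.8 FPM in siI1 and 32.2, 288.7 and 19.6 FPM in siI2, against 459.2, 144.7 and 342.4 FPM in siC. Replicate 2 of siI1 and of siI2 lay above siC replicate 2, and the other libraries of the 2 knockdowns below all of siC. The log2 fold changes of RPS24, -2.25 in siI1 (SE 0.82, limma adjusted p = 0.0938) and -2.29 in siI2 (SE 0.82, limma adjusted p = 0.13), did not pass. In each knockdown the library highest in RPS24 was the one with the largest share of U1 reads, 9.41% in siI1 replicate 2, 6.88% in siI2 replicate 2 and 8.22% in siI3 replicate 3. In siC the order was the reverse, with RPS24 lowest in replicate 2, which had the largest U1 share at 14.74%. Median log2 fold changes of the GC-poor members were -0.41 in siI1 and -0.43 in siI2, beside -0.44 in each over the other GC-poor genes.

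The knockdowns were also compared with each other, which does not involve the siC libraries other than in the shared spread. Between siI1 and siI3, 3 genes were higher in siI1 and 0 lower, beside 7.05% of all genes changed, 4.57% higher and 2.47% lower. edgeR called 4. RPS27L had 16.2, 24.8 and 18.97 FPM in siI1, against 5.89, 3.30 and 6.56 FPM in siI3, without overlap. Its log2 fold change was 1.77 (SE 0.38, limma adjusted p = 0.00781), kept without any one library, and 1.72 after the GC and length correction (limma adjusted p = 0.00147). RPS15A had 64.1, 96.8 and 63.9 FPM in siI1, against 28.9, 22.7 and 44.0 FPM in siI3 (log2 fold change 1.23, SE 0.32, limma adjusted p = 0.0253). RPL27A had 86.7, 121.5 and 94.9 FPM in siI1, against 53.2, 58.1 and 65.6 FPM in siI3 (log2 fold change 0.76, SE 0.22, limma adjusted p = 0.0459). Neither RPS15A nor RPL27A overlapped between the groups. Only RPS27L was left without siI1 replicate 1, 2 or 3 or siI3 replicate 1 or 2, and without siI3 replicate 3 the count was 11. In the order named, the share of all genes called was 3.96%, 4.07%, 4.22%, 4.49%, 4.06% and 8.87%.

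Between siI2 and siI3, RPS27L was the 1 gene higher in siI2 and 0 were lower, beside 2.0% of all genes changed, 1.26% higher and 0.74% lower. edgeR called 1. RPS27L had 13.4, 30.1 and 12.6 FPM in siI2, all above the 5.89, 3.30 and 6.56 FPM of siI3. The log2 fold change was 1.59 (SE 0.38, limma adjusted p = 0.0391), and the call stayed without 5 of the 12 libraries and was lost without 7, siI2 replicates 1 and 2, siI3 replicates 1 and 2, siC replicate 1 and siI1 replicates 1 and 3. The count was 5 with siI3 replicate 3 left out, beside 2.97% of all genes. Between siI1 and siI2, limma called 0 of the 78 genes, beside 2.4% of all genes, 1.63% higher and 0.769% lower. There was 1 at an unadjusted p below 0.05, RPS15A (log2 fold change 0.76, limma adjusted p = 0.279), and edgeR called 0.

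Pseudogenes held a large share of the reads. The table has 810 rows named as pseudogenes of these genes, of which 111 averaged at least 1 FPM, and they took 35.2% to 39.3% of the FPM of genes and pseudogenes together in the 12 libraries. Pseudogene rows exist for 72 of the 80 genes, and in 18 they held more FPM than the gene itself. RPL13A averaged 201.8 FPM and its pseudogene rows 2683 FPM, RPS2 457.1 FPM and 2229 FPM, and RPL41 870.5 FPM and 1880 FPM. For these genes the FPM of the named row is an incomplete measure, since reads of a gene and of its copies can be split in counting. Several of the genes lowest in siI3 had little on such rows: pseudogene rows held 2.47 FPM beside 136.3 FPM for RPS24, 0.241 FPM for RPS6, 0.223 FPM for RPL35A and 0.0726 FPM for RPS27A, and RPS27L has no such row. Others that fell in siI3, RPL24, RPS3A, RPL6 and RPL7, had more on the copies than on their own row. RPL24 averaged 20.7 FPM beside 218.6 FPM on its pseudogene rows, RPS3A 10.9 FPM beside 50.5 FPM and RPL6 76.9 FPM beside 240.6 FPM, while RPS23 had 60.3 FPM beside 29.04 FPM. RPL7 had 55.9 ± 15.7 FPM in siI3 and 391.6 ± 233 FPM in siC on its pseudogene rows, against 7.003 ± 1.56 FPM in siI3 and 21.7 ± 12 FPM in siC on its own (SD, n = 3 each). With the pseudogene rows added to each gene, 21 were lower and 1 higher in siI3 against siC, beside 10.6% of all genes changed.

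**Figure D5:**
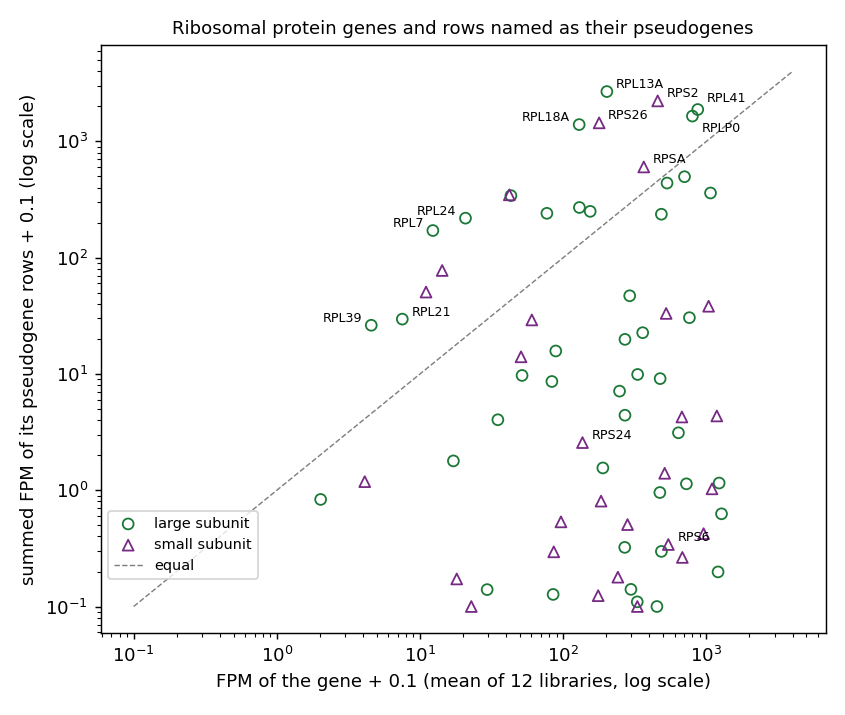
Summed FPM of the rows named as pseudogenes of each ribosomal protein gene (vertical axis) against the FPM of the gene itself (horizontal axis), means of 12 libraries with 0.1 added, both on log scales. Genes above the dashed line of equality, 18 in all, include RPL13A at 201.8 FPM beside 2683 FPM, whereas RPS24 and RPS6 lie far below it.

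Related genes were read from lists. Of the 7 other cytosolic ribosomal protein genes that the naming rule missed, 1 fell in siI3 against siC, beside 8.29% of all genes. RPL36AL, a copy of RPL36A, had 3.51, 4.32 and 28 FPM in siI3, against 53.9, 43.5 and 55.2 FPM in siC, without overlap (log2 fold change -2.54, limma adjusted p = 0.0146). Of 18 tested mRNAs of translation factors and others with a TOP tract, 8 fell in siI3 and 0 rose, with a median log2 fold change of -0.73, beside 8.29% of all genes lower and a median of -0.05. After the GC and length correction 3 of the 8 were still called. The helicase gene EIF4A2 averaged 12.8 ± 3.53 FPM in siI3 and 75.2 ± 36.2 FPM in siC (log2 fold change -2.35, limma adjusted p = 0.0132), and the nucleolar chaperone gene NPM1 90.5 ± 15.96 FPM in siI3 and 232.3 ± 86.3 FPM in siC (log2 fold change -1.29, limma adjusted p = 0.0171), with SD and n = 3 each. In siI1, 4 of the 18 fell and 0 rose, among them NPM1 (log2 fold change -1.34, limma adjusted p = 0.011). In siI2 0 fell or rose by limma, and the medians were -0.58 in siI1 and -0.57 in siI2. Over all tested genes, 4.42% were lower in siI1 and 0.936% in siI2, with medians of -0.05 and -0.09. After the correction 2 of the 4 in siI1 were still called.

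Of 9 noncoding host genes of small nucleolar RNAs with TOP tracts, 3 fell and 1 rose in siI3. Of all tested genes, 8.29% were lower and 2.3% higher there. ZFAS1 had 10.2, 7.62 and 17.4 FPM in siI3, against 48.1, 29.98 and 40.2 FPM in siC (log2 fold change -1.71, limma adjusted p = 0.011). SNHG8 went the other way, with 41.8, 53.2 and 25.5 FPM in siI3, against 17.7, 19.6 and 15.02 FPM in siC (log2 fold change 1.10, limma adjusted p = 0.0264). Neither host gene overlapped between the groups, and these 2 were still called after the correction. Over the 12 fits that each leave out 1 library, ZFAS1 and NPM1 passed in 9, EIF4A2, RPL36AL and SNHG8 in 8. Of 14 genes of the mTOR and LARP pathway, LARP4 (log2 fold change -1.39, limma adjusted p = 0.0301) and EIF4EBP2 (log2 fold change -0.88, limma adjusted p = 0.0368) fell in siI3, while LARP1 had 0.02 and MTOR 0.05 on the log2 scale and did not pass. LARP4 was also lower in siI1 (log2 fold change -1.40, limma adjusted p = 0.0315) and EIF4EBP2 in siI2 (log2 fold change -1.16, limma adjusted p = 0.031). The shares of all genes lower were 8.29% in siI3, 4.42% in siI1 and 0.936% in siI2. After the correction EIF4EBP2 in siI2 kept its call (limma adjusted p = 0.04), while siI3 lost both (LARP4 0.0605 and EIF4EBP2 0.0882) and LARP4 lost its call in siI1 (0.12). Of 75 tested mitochondrial ribosomal protein genes, 3 fell and 2 rose in siI3, 5 fell and 0 rose in siI1, and 0 passed in siI2 by limma, beside 8.29% of all genes lower in siI3 and 4.42% in siI1. After the correction 2 lower and 1 higher of them were still called in siI3 and 0 in siI1.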

How the data were processed

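Total RNA of 12 ES-2 libraries was depleted of ribosomal RNA, fragmented, copied with random hexamers and sequenced, per the labels' protocols. The deposited signal values are FPM, made by the authors from read counts. The submitters' processing notes name cutadapt 1.6, TopHat2 2.0.13, featureCounts 1.4.6, edgeR 3.12 and build hg19, without their order or settings. The authors also deposited a log2 fold change and an FDR, an adjusted p-value, for each knockdown against siC.

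The FPM values of every library were whole multiples of 1 read (100% of values, tolerance 0.01), so reads were recovered from them. Genes were kept by edgeR's filterByExpr on these reads (minimum count 10), leaving 13782. The main test was limma 3.58.1 in R 4.3.3 with a trend on log2(FPM + 1), 1 coefficient per group over all 12 libraries, moderated p-values and Benjamini-Hochberg adjustment over all genes tested, called below 0.05. Fold changes on that scale understate those of low genes. edgeR 4.0.16 (quasi-likelihood), DESeq2 1.42.0 and voom were run on the recovered reads as alternatives, beside other scalings, pseudocounts and filters, the replicate number as a block, leaving out each library, and a loess correction (span 0.5) for GC content and length from GENCODE 29. Levels per kilobase, the GC content of the mRNA, the splits by it and the rho values use the shortest annotated transcript linked to RefSeq. The correction and the change of each library per 10 points of GC use the longest annotated transcript. Start windows are from RefSeq on GRCh38.p14, while the files use hg19, so no coordinate of the files was mixed with them.

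On data simulated for siI1 against siC with 200 changed genes among 13782, the limma fit recovered 81.5% of 4-fold, 29.0% of 2-fold and 2.7% of 1.5-fold changes. All simulated libraries started from the siC means, with a spread that followed expression level alone. They had no differences in GC slope and did not cover siI3, so these rates need not hold for the real tests.

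Named genes were the classical members and paralogs, up to 8 called genes with the largest changes in each direction, the 3 smallest p-values where none was called, the 5 highest and 5 lowest per kilobase, and up to 3 called genes of each other list. RPS27, RPS13, RPS23, RPS3A, RPL29, RPL24, RPL7, RPL6, RPL37A, RPL23A and RPS2 were added after their values were seen. The members and lists were chosen with earlier results of these data known. A few items the rules would name are not reported here.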

Additional observations from a re-analysis of the deposited data

Results flagged for a closer look

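The knockdowns differed from each other in 4 results by the direct contrast of the same limma fit. RPS27L was higher in siI1 than in siI3 by 1.77 on the log2 scale, and higher in siI2 than in siI3 by 1.59. RPS15A was higher in siI1 than in siI3 by 1.23, and RPL27A by 0.76. All of them are differences in the effect of 2 siRNAs relative to the same siC libraries, which cancel in the contrast.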

How the results depend on the processing

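The counts of called ribosomal protein genes depended on the fit, and no result changed sign with a call. In siI1 against siC (1 gene), edgeR gave 2, DESeq2 6, voom 2, no filter 0 and the GC and length correction 0. A fit of only the 6 libraries compared gave 7, and pseudogenes added 3. In the order named, the share of all genes called was 10.1%, 15.5%, 9.17%, 1.07%, 6.88%, 14.8% and 8.2%. In siI2 against siC (0 genes), DESeq2 gave 1, beside 5.88% of all genes. In siI3 against siC (19 genes), no filter gave 9 and the correction 10, beside 1.02% and 6.85% of all genes. In siI1 against siI3 (3 genes), scaling to the protein-coding total gave 1, no filter 1 and the correction 6. Beside these, 7.93%, 1.32% and 11.7% of all genes were called. In siI2 against siI3 (1 gene), DESeq2 gave 2 and the correction 2. Voom, protein-coding scaling, no filter, a pseudocount of 4 and only the 6 libraries gave 0 each. In the order named, the share of all genes called was 4.38%, 3.78%, 1.72%, 2.48%, 0.297%, 1.88% and 0.66%. Leaving out 1 library gave 0 to 7 in siI1, 0 to 6 in siI2 and 1 to 39 in siI3, each against siC. The shares of all genes called ran from 1.94% to 18.9%, 0.203% to 11.4% and 0.646% to 20.5%. The counts were 0 to 0 in siI1 against siI2, 1 to 11 in siI1 against siI3 and 0 to 5 in siI2 against siI3. There the shares ran from 0.921% to 3.53%, 3.96% to 8.87% and 0.813% to 2.97%. The replicate block gave 0 in siI1 against siC, 11 in siI3 against siC and 0 in siI2 against siI3. Its shares of all genes called were 5.05%, 5.41% and 1.39%. Correlations of same-numbered libraries ran from -0.455 to 0.447 and those of differently numbered libraries from -0.323 to 0.425. With 3 libraries per group these values cannot tell whether the numbers pair the libraries. The large against small subunit difference (0.08, 0.08 and 0.09) was -0.03, -0.02 and -0.03 after the correction, -0.08, -0.05 and -0.21 as a median over members, and 0.01 in siI3 with pseudogenes added. Without 1 library it was 0.06 to 0.11, 0.05 to 0.1 and 0.05 to 0.13, and with the replicate block 0.08, 0.08 and 0.09. Scaling to the protein-coding total moved the median of all genes in siI1 against siI2 to -0.08, against 0.05 before. In siI3 against siC that scaling gave 17 lower and 2 higher, RLE factors 17 and 1, upper-quartile factors 16 and 2. Of all genes, 8.99%, 9.85% and 10.2% were called in either direction. With 3 libraries per group, depth limits genes under a few FPM most. The causes were not tested.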
